A study of Mus musculus with 12 samples.

Results

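Ncl, Pemt, Mrpl23, G6pc3, Mtg1, Ppia, Hdgf and Pfn1 are 8 mouse genes that have a MYC peak at a gene end in cells treated with the BET inhibitor I-BET, alone or with RANKL. Their choice rests on MYC peak positions: a peak of 1 or both inhibitor MYC lists lies within 1 kb of an annotated end. Of 21887 protein-coding genes, 18 meet this, and the 8 were chosen by name among them. The other 10 are given near the end. The presence of a MYC peak with inhibitor is therefore how they were chosen and is no result. At each gene the peaks of all 8 deposited lists that overlap its extent plus 10 kb on each side are described here.

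The cells are RAW264.7, a mouse monocyte-derived line with macrophage properties that can form osteoclasts. Untreated cells were set beside cells given RANKL (50 ng/ml), I-BET (500 nM) or the combination for 4 h. RANKL is the cytokine that induces osteoclasts. MYC and MAX were each mapped by ChIP-seq (chromatin immunoprecipitation and sequencing), with 1 deposited sample and 1 peak list per antibody and treatment. By their names most listed peaks join 3 peak calls. This held for 307 of 312 untreated MYC peaks, 134 of 136 with I-BET and 8547 of 8839 untreated MAX peaks. Whether the joined calls come from separate cultures is not stated. Input was also sequenced (4 libraries, not analysed here). Since each antibody and treatment gave a single list, no difference between treatments has a replicate check or a p-value, and the lists do not give the read depth.

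There were 312 MYC peaks untreated, 299 with RANKL, 136 with I-BET and 11 with both, and for MAX 8839, 10889, 36785 and 6307. Ranks below are places in these lists by the authors' score, 1 being the highest score, and they compare peaks within a list only. An untreated MAX peak was listed at an end of 4 of 8 macrophage, 1 of 6 lymphocyte and 0 of 6 fibroblast and osteoblast markers, beside 23.7% of all protein-coding genes. At an end, 0 of the 8 macrophage markers had an untreated MYC peak, beside 1.05% of all protein-coding genes. With RANKL 1 of the 8 had a MYC peak there (Spi1), beside 1.04%. A peak list holds no expression level, so the label of the line was not checked further.

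MYC is a transcription factor that binds DNA as a pair with MAX, most tightly at the E-box sequence CACGTG. BET proteins read acetylated histones and help RNA polymerase II into elongation, and I-BET compounds block that reading. Transcription of the Myc gene itself is lowered by BET inhibitors in many blood cell lines. The 8 genes do not form 1 pathway. Ncl serves ribosome assembly in the nucleolus, Mrpl23 and Mtg1 serve the mitochondrial ribosome, G6pc3 and Pemt are metabolic enzymes, and Ppia, Hdgf and Pfn1 encode abundant proteins of folding, chromatin and the actin skeleton.

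The sequences shown first are those under or beside the MYC peaks, where the RefSeq promoter windows (250 bases before to 50 after a start site, GRCm38.p6) cover them. All 8 genes had a window in that table, and those of G6pc3, Mtg1 and Hdgf overlapped a MYC peak. Capitals mark the E-box, or in Ppia its variant CACGCG, and all are read on the + strand, which is the coding strand of these genes. The first is the whole I-BET peak of MYC at G6pc3, the second 30 bases inside the I-BET peak at Hdgf, the third the part of the untreated MYC peak before the start site of Mtg1. The last lies before the start site of Ppia, under MAX peaks and outside its MYC peaks.
G6pc3, chr11:102189595-102189671: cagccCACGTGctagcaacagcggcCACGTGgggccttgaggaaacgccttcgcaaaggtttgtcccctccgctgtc
Hdgf, chr3:87906092-87906121: cccggggaggggCACGTGcagcctgtccag
Mtg1, chr7:140137482-140137563: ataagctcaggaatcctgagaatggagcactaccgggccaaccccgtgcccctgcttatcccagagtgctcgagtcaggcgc
Ppia, chr11:6415688-6415717: cgcgctacagcgCACGCGcgcctcgcgccc

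The 77 bp that MYC keeps at G6pc3 with I-BET hold 2 copies of CACGTG, centred at -97 and -77 bp from the start site. They lie 31 and 11 bp from the centre of the I-BET peak. At Hdgf the single CACGTG lies 10 bp from the centre of the I-BET peak. Both G6pc3 copies and the Hdgf copy are inside the peaks of all lists that hold a MYC peak there, and of all 4 MAX lists. The window of Mtg1 holds neither the E-box nor its variant, which reads CGCGTG on the opposite strand. Its I-BET peak covers only 6 bases of that window, so most of that peak was not searched.

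Of all 32851 promoter windows, 7.15% hold the E-box and 9.27% its variant. The E-box is its own reverse complement and the variant was searched in both readings, so both strands are covered, and no match of 1 can be a match of the other. Among windows that overlap an untreated MYC peak the shares were 37.8% and 44.6% (of 193 windows). Among those that overlap an I-BET peak of MYC they were 50.0% and 70.0%, of only 10 windows, which include windows of G6pc3, Mtg1 and Hdgf. Among those that overlap an untreated MAX peak they were 18.0% and 26.9% (of 5022). Of the 10 windows of the 8 genes, 2 hold the E-box and 3 the variant. Only 1 window each of G6pc3, Mtg1 and Hdgf overlaps a MYC peak. The sequence under the MYC peaks of the other genes was therefore not searched. The counts over the 10 windows cannot be set beside the shares of windows that overlap a peak. A match is a description of the letters in these windows and not a shown binding site.

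**Figure D1:**
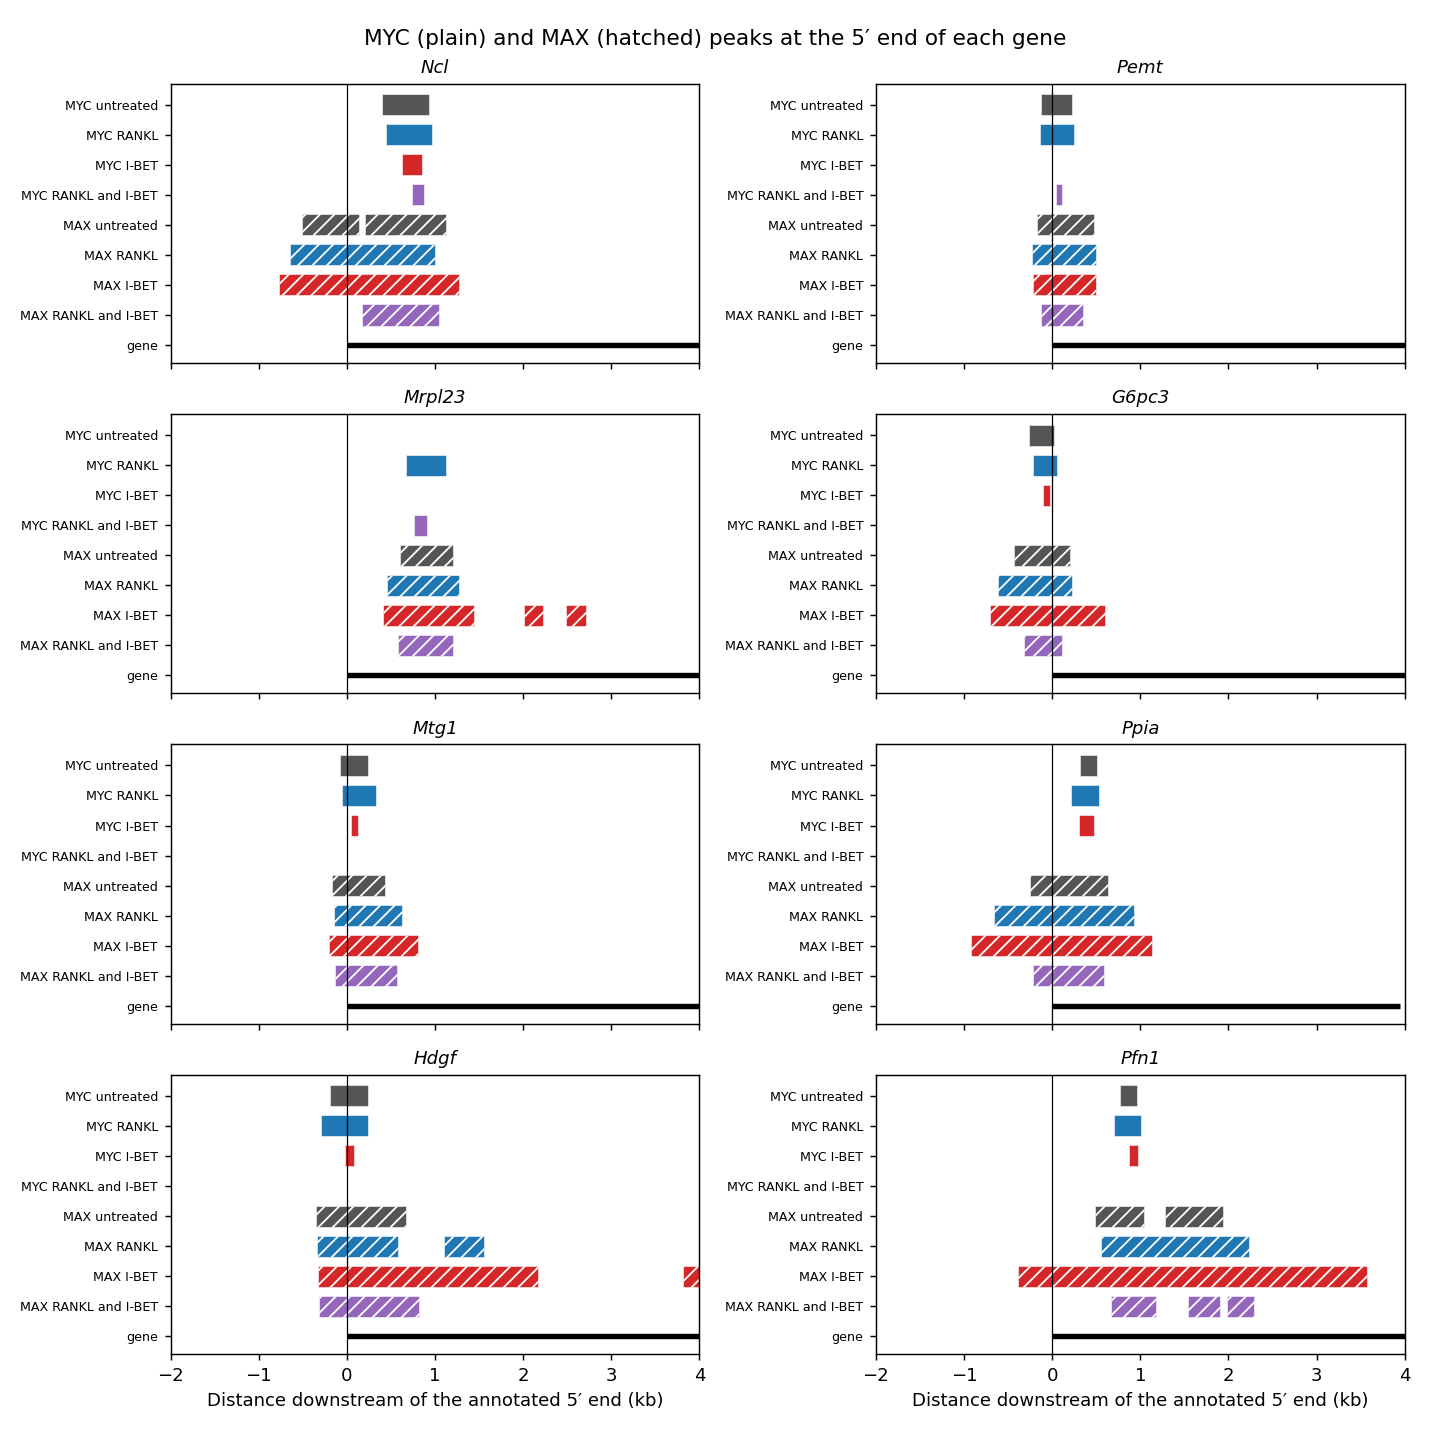
Peaks of the 8 lists around the annotated 5′ end of each gene. The horizontal axis is the distance in kb, positive into the gene, each bar is 1 peak drawn to scale (plain for MYC, hatched for MAX), and the black line is the gene. MYC bars with I-BET or with both compounds are short and lie inside the longer MAX bars of the same colour.

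Membership in the 4 MYC lists differed between the genes. Within 10 kb, 7 of the 8 genes had a MYC peak untreated (background 2.05% of all protein-coding genes), 8 with RANKL (2.02%), 6 with I-BET (0.434%) and 3 with both (0.064%). The last 2 counts are what the choice of genes fixed, and nothing is read from them. Ncl was the 1 gene with a peak in all 4. Pemt had none with I-BET alone, and Mrpl23 had none untreated and none with I-BET alone. G6pc3, Mtg1, Ppia, Hdgf and Pfn1 had none with both compounds. The word "keeps" thus stands for a peak in 1 of the 2 inhibitor lists at every gene but Ncl. This also follows from the choice of genes and from the 11 peaks of the list with both compounds, and is no result. For Mrpl23 the word holds against RANKL and not against untreated cells.

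The position of the peaks was compared between lists. All 24 MYC peaks at the 8 genes were nearer the 5′ than the 3′ end of the gene by the strand in the promoter table. Over all MYC peaks at an end of a gene in that table the share was 95.1% (of 408 pairs of peak and gene). Of the 9 peaks in the inhibitor lists, 9 lay wholly inside the RANKL peak of the same gene. In the whole lists this held for 22.8% of the 136 I-BET peaks and for 9 of the 11 with both. Among the I-BET peaks at a gene end it held for 9 of 12. These sets are no outside reference, since they include the chosen genes: 6 of the 12 peaks and 3 of the 11 are theirs. Of the 9 inhibitor peaks of the chosen genes, 8 have an untreated peak to compare. All 8 overlapped it and 6 lay wholly inside it. Of all I-BET peaks at a gene end, again with those of the chosen genes, 11 of 12 overlapped an untreated MYC peak and 6 lay wholly inside one. Among the 8 compared peaks of the chosen genes, those not wholly inside were at Ppia, where 97.1% of the I-BET peak was inside, and Pfn1 with 94.7%. The centre moved from the untreated centre by between -20 bp (Ppia, upstream) and 145 bp (Ncl with both compounds, downstream). No other protein-coding gene has an end within 1 kb of these 24 peaks.

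The kept peaks were narrower. At the 6 genes with an I-BET peak the widths ran from 77 to 229 bp (median 101.5), against 192 to 528 bp at the 7 genes untreated (median 327) and 281 to 537 bp at the 8 genes with RANKL (median 378.5). The whole I-BET list was narrower still, with a median of 72.5 bp against 260 bp untreated. The ratio of a kept width to the untreated width was lowest at Pemt with both compounds (0.201) and highest at Ppia with I-BET (0.851). Apart from Ppia, each kept peak had less than 0.5 times its untreated width. With RANKL alone the peak was wider than untreated at 5 of the 7 genes that have both, against 65.1% of all 149 untreated MYC peaks that overlap a RANKL one.

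**Figure D2:**
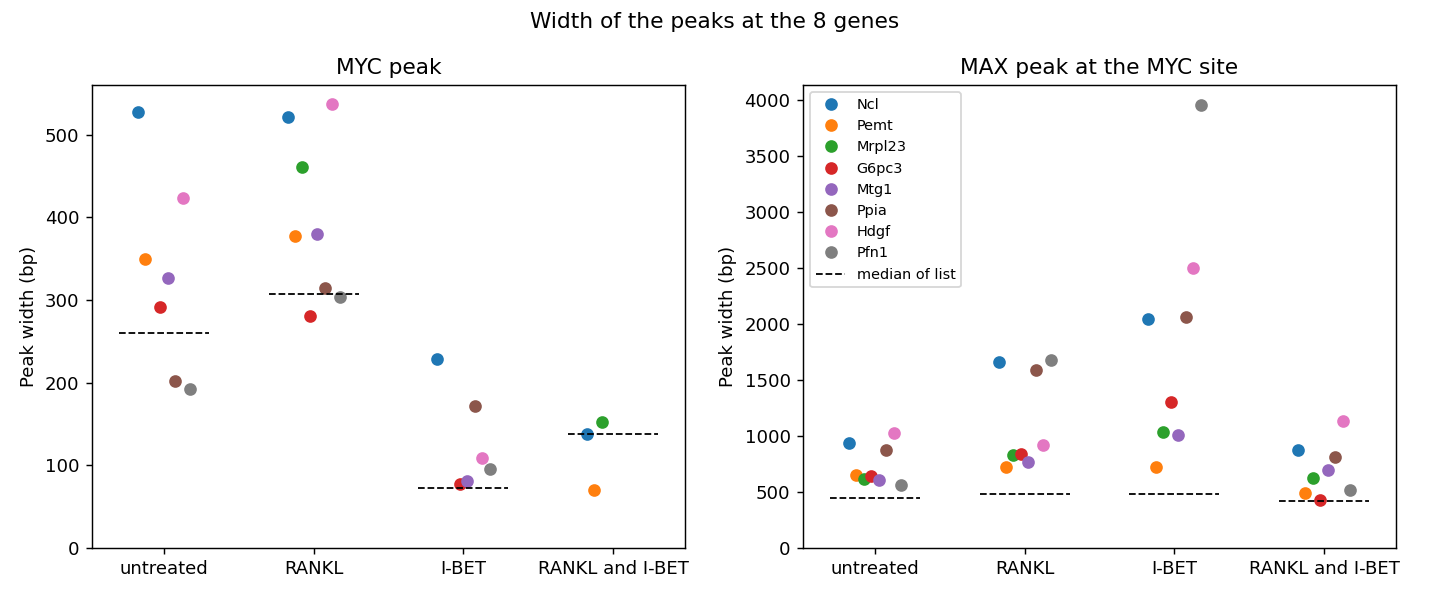
Width in bp of the MYC peak (left) and of the MAX peak at the same place (right) in each treatment. Each point is 1 gene and the dashed line is the median of the whole list. MYC points with I-BET lie between 77 and 229 bp, and the Pfn1 MAX peak reaches 3958 bp with I-BET.

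Ribosome genes come first. Ncl encodes nucleolin, an RNA-binding protein of the nucleolus that acts in ribosomal RNA synthesis and assembly. It lies on chromosome 1 (86344719 to 86359455, mm10, minus strand). Its MYC peaks covered 86358529 to 86359056 untreated (rank 3, 528 bp) and 86358491 to 86359012 with RANKL (rank 21). With I-BET the peak was at 86358607 to 86358835 (rank 113 of 136, 229 bp), and with both at 86358579 to 86358716 (rank 6 of 11, 138 bp). All 4 are inside the gene, centred 663 to 808 bp downstream of the start site, so the promoter window of Ncl holds none of them. The window was covered in full by MAX peaks untreated, with RANKL and with I-BET, and by 0 bases of a MAX peak with both. At the MYC site itself MAX was at rank 43 untreated, 208 with RANKL, 9 with I-BET and 17 with both. In untreated cells the promoter had its own MAX peak (86359314 to 86359967, rank 5890), apart from the intragenic one (86358325 to 86359255). With RANKL and with I-BET a single MAX peak spanned both places, 1656 and 2045 bp wide.

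Mrpl23 encodes a protein of the large subunit of the mitochondrial ribosome. It lies on chromosome 7 (142532467 to 142540747, plus strand). MYC was listed there with RANKL (142533137 to 142533597, rank 151, 461 bp) and with both compounds (142533223 to 142533374, rank 5, 152 bp). The RANKL peak joins 5 calls, whereas the other 23 MYC peaks at the 8 genes join 3 each. MAX was listed in all treatments, at ranks 125, 296, 121 and 239 in the order untreated, RANKL, I-BET and both. The untreated MAX peak (142533064 to 142533675) was thus present where no untreated MYC peak was listed. All MYC peaks lie within the gene, centred 266 to 335 bp after the listed start site.

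Mtg1 encodes a mitochondrial GTPase that acts in assembly of the large mitochondrial ribosomal subunit. It lies on the same chromosome 7 (140137564 to 140150786, plus strand). Its MYC peaks straddled the start site untreated (140137482 to 140137808, rank 91) and with RANKL (140137511 to 140137890, rank 15). With I-BET the peak was 81 bp wide, just after the start (140137608 to 140137688, rank 123), and its centre was 3 bp from the untreated one. MAX at this place ranked 166, 205, 56 and 132. Mtg1 and Ppia are the 2 genes where no MAX peak other than the one at the MYC site was listed within 10 kb in any treatment.

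The metabolic enzymes follow. G6pc3 encodes the broadly expressed glucose-6-phosphatase catalytic subunit, whose loss causes neutropenia in people. It lies on chromosome 11 (102189699 to 102194081, plus strand). MYC covered the start site or its upstream flank untreated (102189433 to 102189724, rank 12), with RANKL (102189479 to 102189759, rank 22) and with I-BET (102189595 to 102189671, rank 116). These are the peaks that hold the 2 E-boxes printed above. MAX ranked 41 untreated, 54 with RANKL and 54 with both.

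The I-BET peak of MAX at G6pc3 (102188994 to 102190299) has a deposited score of 0 and so a rank of 36771 of 36785. It is 1306 bp wide, 2.05 times its untreated width. That list holds 17 peaks with a score of 0, and the lowest other score is 19.3. The 17 are 811 to 2199 bp wide, and all 17 overlap an untreated MAX peak of rank 2 to 116. For G6pc3 the I-BET rank was therefore left out of the ranges below. Why these scores are 0 was not tested.

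Pemt encodes the enzyme that methylates phosphatidylethanolamine to phosphatidylcholine. It is the longest of the 8 genes (75948 bp, chromosome 11, 59970614 to 60046561, minus strand). Its MYC peak was at rank 4 untreated (60046335 to 60046683) and at rank 4 with RANKL (60046318 to 60046694). With both compounds it was the top peak of the list (60046453 to 60046522), although only 70 bp wide. With I-BET alone no MYC peak was listed, yet MAX at this place was at rank 8 of 36785, its highest place among the 8 genes. MAX ranked 58 untreated, 40 with RANKL and 36 with both. The peaks sit at the outermost 5′ end of the gene, with MYC centres at -6321, -6318 and -6299 bp from the nearest start site of the promoter table, and neither of its 2 windows overlapped a peak.

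Ppia, Hdgf and Pfn1 make up the remaining group. Ppia encodes cyclophilin A, a peptidyl-prolyl isomerase and the cellular target of cyclosporin. On chromosome 11 (6415867 to 6419817, plus strand) MYC lay inside the gene, untreated at 6416178 to 6416379 (rank 243), with RANKL at 6416083 to 6416397 (rank 91) and with I-BET at 6416173 to 6416344 (rank 114). Ppia had the lowest-ranked untreated MYC peak of the 8 genes and the width closest to untreated with I-BET, 172 against 202 bp. MAX spanned the start site in every treatment, at ranks 247, 142, 426 and 436.

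Hdgf encodes a chromatin-binding growth factor with a PWWP domain. On chromosome 3 (87906090 to 87916132, plus strand) MYC covered the outer 5′ end untreated (87905903 to 87906325, rank 101) and with RANKL (87905795 to 87906331, rank 146). The I-BET peak (87906063 to 87906170, rank 133) was 108 bp wide, and its centre was 2 bp from the untreated one. MAX ranked 94, 82, 19 and 194. With I-BET this MAX peak reached 2496 bp, against 1026 bp untreated.

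Pfn1 encodes profilin 1, which binds actin monomers and feeds filament growth. It lies on chromosome 11 (70651844 to 70656799, minus strand) and overlaps Eno3 (enolase 3), whose extent also holds the MYC peaks. MYC was listed untreated at 70655835 to 70656026 (rank 77), with RANKL at 70655795 to 70656098 (rank 156) and with I-BET at 70655830 to 70655924 (rank 129). The centres lie at -1280, -1296 and -1227 bp from the listed start site, upstream of it but inside the annotated extent. With a gap of 875 bp to the annotated end, the I-BET peak of Pfn1 is the member just inside the 1 kb limit. Just outside it are Gtf2ird2 (1331 bp), Angptl6 (1418 bp) and Kpna1 (1511 bp). MAX at the Pfn1 site ranked 647, 314, 834 and 324, and its I-BET peak of 3958 bp covered most of the gene. Untreated, a separate MAX peak lay beside the MYC site (70654859 to 70655522, rank 4552). With RANKL and with I-BET a single MAX peak spanned both places. With both compounds separate MAX peaks were listed there again (ranks 3560 and 5282, beside the one at the MYC site).

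Within the I-BET list of MYC the 6 genes stood low, with ranks from 113 to 133 of 136. All 6 were under the median score of that list. This was not particular to them. The other I-BET peaks at a gene end ranked 124 (Lars2), 126 (Rpl10a), 127 (Ears2 and Ubfd1), 132 (Hspd1 and Hspe1) and 136 (Ctbp2 and Gm35364). Only that of Rps29 stood high, at rank 23. In untreated cells the 7 genes spread from rank 3 to 243 of 312, and with RANKL the 8 genes from 4 to 156 of 299. With both compounds Pemt, Mrpl23 and Ncl held ranks 1, 5 and 6 of 11.

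**Figure D3:**
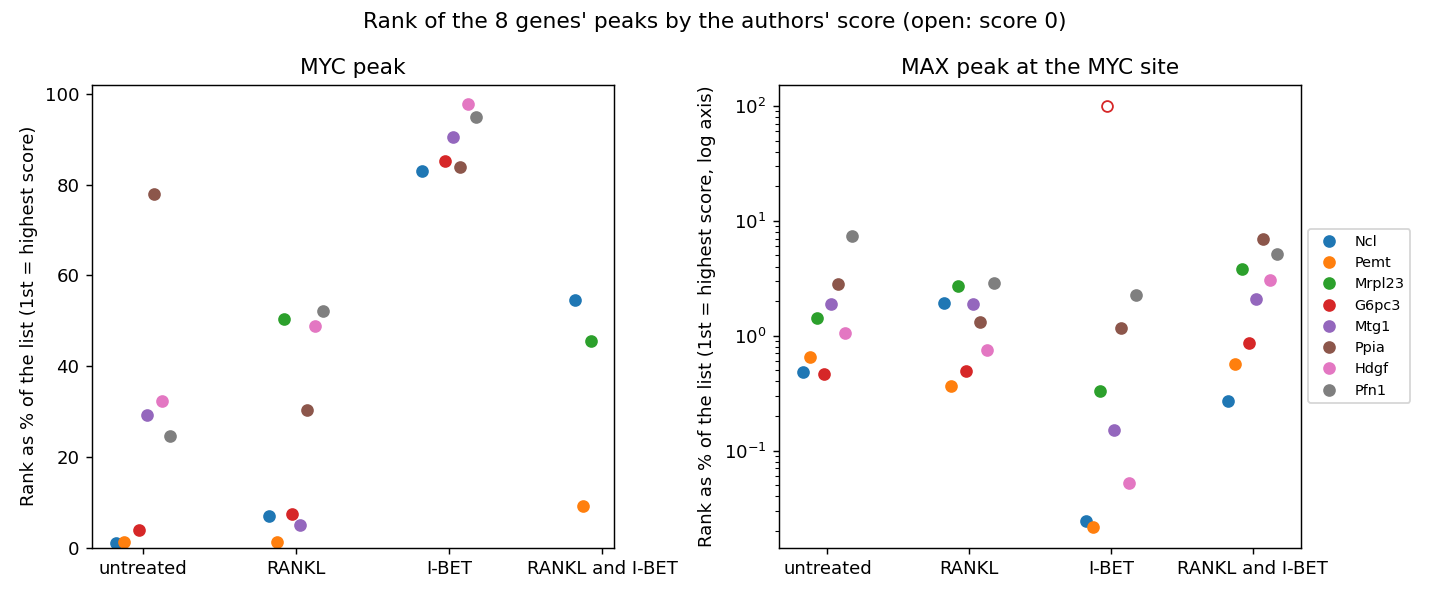
Rank of the peaks as a percentage of the list, low values being high scores, for MYC (left, linear axis) and for MAX at the MYC site (right, log axis). Each point is 1 gene, and the open point is the G6pc3 peak with a score of 0. MYC points with I-BET lie between 83.1% and 97.8%, while the other MAX points lie at or under 7.32% in every treatment.

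MAX was present at all 8 genes in all 4 treatments. The background of genes with a MAX peak within 10 kb was 37.4% untreated, 42.3% with RANKL, 65.0% with I-BET and 30.0% with both. All 24 MYC peaks lay wholly inside a MAX peak of the same treatment. So did 95.4% of all 388 MYC peaks at a gene end, and 81.4% of all 758 MYC peaks of the 4 lists (36.0% in the I-BET list). At the MYC site the MAX peaks ranked from 41 to 647 untreated, 40 to 314 with RANKL and 17 to 436 with both. With I-BET the range was 8 to 834 over the 7 genes other than G6pc3. As a share of the list length, the lowest place was that of Pfn1 untreated, at 7.32%.

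High MAX ranks are also found at genes whose MYC peak was not listed again. Of 230 genes with an untreated MYC peak at an end, 214 had none at an end in either inhibitor list. Their best MAX peak at an end had a median rank of 470.5 untreated (quartiles 222.75 and 1021.25, 206 genes with a peak), against a median of 109.5 at the 8 genes, or 94 without Mrpl23, which has no untreated MYC peak. Ppia and Pfn1 lay further down the list than its quartile of 222.75. With RANKL the medians were 577.5 and 173.5, and with both compounds 512 and 163. For the untreated MYC rank they were 170 and 77 (7 genes). The groups overlap, since not-kept genes reach MAX rank 11 untreated, and with 1 list per treatment the difference was not tested. For the other 10 genes with an inhibitor MYC peak, the untreated MAX peak that overlaps that MYC peak was ranked. This need not be the best MAX peak at an end, so it is not the measure used for the 214 genes. The rank was 36 at Ears2 and Ubfd1, 210 at Nop58, 233 at Hspd1 and Hspe1 and 346 at Rpl10a. It was 461 at Ctbp2 and Gm35364 and 7708 at Rps29, and no untreated MAX peak overlapped the MYC peak of Lars2.

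MAX peaks at the MYC sites were wider with I-BET at all 8 genes, by a median factor of 2.12 over untreated. The extremes were 1.12 at Pemt and 7.02 at Pfn1. At Pfn1 and Ncl the RANKL and I-BET MAX peaks also span a separate untreated MAX peak. The factors there compare such a joined peak with only the untreated peak at the MYC site. Over all 8615 untreated MAX peaks that overlap an I-BET peak the median factor was 1.89, and 92.2% were wider, so wider peaks were general in this list. With RANKL the factor ranged from 0.898 (Hdgf) to 2.97 (Pfn1), and 7 of the 8 were wider, against 68.6% of all 7248 matched peaks. From RANKL to both compounds the MAX peak was narrower at 7 of the 8, against 82.7% of all 5579 matched peaks. The median factor was 0.602 at the 8 genes and 0.798 over all matched peaks, and Hdgf was wider (1.23).

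MYC peaks were thus narrower with I-BET inside wider MAX peaks. At Pfn1 the MYC peak filled 34.0% of the MAX peak untreated and 2.4% with I-BET. At Hdgf these shares were 41.2% and 4.33%, at Mtg1 54.0% and 8.04%, and at Ncl 56.7% and 11.2%. At Pfn1 and Ncl the I-BET MAX peak takes in a MAX peak that is listed separately in untreated cells. Both widths depend on how each list was called. The tags in the peak names differ between the MYC and MAX lists, but their meaning is not stated.

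Other MAX peaks were also listed within 10 kb. Untreated there were 3 at 3 genes, with RANKL 4 at 3 genes, with both 2 at Pfn1, and with I-BET 12 at 6 genes, with ranks from 4519 to 35129 (12.3% to 95.5% of the list length). Untreated, the highest-placed was 1 at Hdgf, at rank 2840 (32.1%). Several belong to neighbours. The G6pc3 window holds the end of Lsm12, with a MAX peak with RANKL (rank 8798) and I-BET (rank 4519), and the Pemt window holds Rasd1, with 2 I-BET peaks (ranks 25568 and 26174). The Pfn1 window reaches Slc25a11 and Rnf167, which share a MAX peak with RANKL (rank 9550) and I-BET (rank 4750).

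A further 10 protein-coding genes have an inhibitor MYC peak at an end, through 7 peaks, and are not among the 8. With I-BET they are Rps29, Lars2, Rpl10a, Ears2 with Ubfd1, Hspd1 with Hspe1, and Ctbp2 with Gm35364. With both compounds it is Nop58 (a box C/D snoRNP protein) at 59684988 to 59685094 on chromosome 1, rank 7. Likeness was counted as the number of the 8 lists in which a gene and a member both have, or both lack, a peak within 10 kb. Over all 8 lists Nop58 had the pattern of Pemt. Rpl10a, Ears2, Ubfd1, Hspd1, Hspe1, Ctbp2 and Gm35364 had that of G6pc3, Mtg1, Ppia, Hdgf and Pfn1. Lars2 matched it in 5 lists and Rps29 in 6. By strand, 7 of the 10 genes have the peak at the 5′ end, Lars2 has it at the 3′ end, and Rps29 and Gm35364 were not assigned.

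The relatives of each gene were counted at gene ends (1 kb), where the MAX background was 23.7% untreated, 27.8% with RANKL, 50.3% with I-BET and 18.6% with both, and the MYC background 1.05%, 1.04%, 0.0685% and 0.0183%. Each list includes the member itself. MYC with inhibitor at Ncl, Mrpl23 and Mtg1 is how they were chosen, and nothing is read from it. Of 9 nucleolar genes around and including Ncl, 9 had MAX in every treatment. MYC was listed at 6 untreated (Ncl, Nop56, Nop58, Dkc1, Gnl3 and Nolc1), 5 with RANKL, 1 with I-BET (Ncl) and 2 with both (Ncl and Nop58). Of the 49 genes of the large mitochondrial ribosomal subunit 33, 35, 46 and 28 had MAX in the order untreated, RANKL, I-BET and both. MYC was listed at Mrpl1 untreated, at Mrpl23 and Mrpl43 with RANKL, at none with I-BET and at Mrpl23 with both. Of 10 mitochondrial ribosome assembly genes 3, 4, 10 and 2 had MAX, and Mtg1 was the 1 with MYC.

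The families of the other 5 genes follow. MYC at the member itself is how it was chosen. Of 14 cyclophilins and relatives 7 had MAX untreated and 13 with I-BET, with MYC at Ppia. Of 5 HDGF family genes 1 had MAX untreated and 3 with I-BET, with MYC at Hdgf. Of 15 profilin and actin turnover genes 6 had MAX untreated and 15 with I-BET, with MYC at Pfn1. Of 14 genes of phosphatidylcholine and phosphatidylethanolamine synthesis 9 had MAX untreated and 12 with I-BET, with MYC at Pemt. In the glucose-6-phosphatase group 7 of 12 had MAX untreated and 9 with I-BET, and Hk2 (hexokinase 2) had MYC untreated and with RANKL beside G6pc3.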

How the data were processed

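The submitters' processing notes name Bowtie2 (2.3.4.1), MACS2 (2.1.1.20160309) and FastQC, with mm10 (GRCm38). Peak names carry the tag tq10 in the MYC lists and tq001 in the MAX lists. No source used here states what these tags mean or whether input was used. The deposited lists give, per peak, a position, the names of the joined calls and the authors' score, on a scale not stated, which served only to rank peaks within a list. Nothing says whether the joined call sets are separate cultures.

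Starts were raised by 1 on the assumption of BED positions. Gene extents are those of RefSeq GRCm38.p6 (21887 protein-coding genes), and strand and start sites come from the RefSeq promoter table. Overlap means at least 1 bp. The MAX peak "at the MYC site" overlaps a MYC peak of the gene in any treatment. Named genes are the 8 members, every other gene with an inhibitor MYC peak within 1 kb of an end, neighbours sharing a peak, and up to 4 MYC-bound genes per family list, with Ncl and its partners given in full. The members and lists were chosen with earlier results of these data known. Python 3.11.15, numpy 2.4.6 and pandas 2.3.3 were used. The overlap code was tested on simulated data and gave 0 differences from bedtools 2.31.1.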

Additional observations from a re-analysis of the deposited data

How the results depend on the processing

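Counts of members with a peak were recomputed with windows of 1 kb at the ends, 5 kb and 20 kb, without peaks under 100 bp, among peaks at or above the median score, and with as many top-ranked peaks as the shortest list of the antibody (11 for MYC, 6307 for MAX). An equal number of the widest peaks was added after the data were seen. With 11 top-ranked peaks the MYC counts became 2 untreated, 1 with RANKL and 0 with I-BET, and with the 11 widest peaks 0, 0 and 1. The I-BET count of 6 became 3 without peaks under 100 bp and 0 among peaks at or above the median score. At reciprocal overlap of 50%, 6 of 24 MYC peaks were shared with MAX and 1 of 9 inhibitor peaks with the untreated MYC peak, in place of 24 and 8. Without peaks under 100 bp the last count was 4 of 5. The narrower widths limit reciprocal overlap by construction. The other 51 recomputed counts stayed within 1.5 times, MAX counts among them. No paired analysis was possible because each antibody and treatment has 1 list. Read depth is unknown, so a gene without a listed peak is not shown to lack MYC.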
